A study of Mus musculus with 21 samples.

Results

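The regions described here are Rnf20 peaks of mouse embryonic stem (ES) cells at which neither Fbxl19 nor H2Bub1 was listed. They were selected by position: an Rnf20 peak on chromosomes 1 to 19 (mm9) entered the set if it shared no base with any peak of 2 Fbxl19 lists and with any domain of 5 H2Bub1 lists. Of 8606 Rnf20 peaks, 8211 lay on these 19 autosomes and 3010 met the rule. Those 3010 are 36.7% of the autosomal peaks (exact Clopper-Pearson 95% interval 35.6 to 37.7). Overlap calls of all 7 lists chose the set, so its size and its lack of Fbxl19 and H2Bub1 describe the rule and were not tested.

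The series comprised 21 chromatin samples in 12 groups of J1 ES cells, a mouse line kept pluripotent with leukemia inhibitory factor. Rnf20 was pulled down on streptavidin beads in 1 sample from J1 cells containing BirA, the bacterial enzyme that attaches biotin to a tag. Fbxl19 carried a flag-biotin tag and was pulled down in 2 samples of a clone that overexpressed it more than 5 fold (OE-high, labelled J1) and 2 samples of a clone at a sub-endogenous level (OE-low, labelled J1 containing BirA). H2Bub1 was precipitated by antibody in 3 unmodified ES cell samples, 2 Fbxl19 knockdown (KD) samples, 3 samples of the OE-high clone, 2 after differentiation to day 4 and 2 KD samples differentiated likewise. The other 4 samples were input DNA, with no list used here. None was titled as the input of the Rnf20 sample or of the differentiated KD samples. The labels give neither the knockdown method nor the differentiation protocol, and each Fbxl19 level comes from a single clone. The tag on Rnf20 is not described by the labels.

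Rnf20 is a RING-type E3 ubiquitin ligase that works with Rnf40 and an E2 enzyme of the Rad6 family to attach a single ubiquitin to histone H2B. The product, H2Bub1, is laid down over transcribed gene bodies as the ligase accompanies elongating RNA polymerase II. Fbxl19 is an F-box protein whose CXXC zinc finger binds unmethylated CpG, the kind of DNA found in CpG islands. The title of the series concerns recruitment of Rnf20 by Fbxl19 at CpG islands, with H2B monoubiquitination as the readout. The set described here is the part of the autosomal Rnf20 list that overlapped no listed Fbxl19 peak and no listed H2Bub1 domain.

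All values come from lists of called regions. The Rnf20 list stems from a single library, and the other lists are named as combined over replicates. No spread between replicates could be set against any difference, so p-values are not given. The intervals reflect how many peaks were counted and nothing else. Depth per sample is unknown. The J1 ES label could not be checked against marker genes, since the lists hold positions and no expression. No list from cells with BirA alone was used here, and the part of streptavidin background in these peaks was not tested.

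The lists removed Rnf20 peaks to very different extents. An Fbxl19 peak of either clone overlapped 3350 autosomal Rnf20 peaks and left 4861 (59.2%, interval 58.1 to 60.3). Of these 4861, 1851 lay in an H2Bub1 domain and 3010 (61.9%, interval 60.5 to 63.3) did not. Among Rnf20 peaks with Fbxl19, 913 (27.3%, interval 25.8 to 28.8) lay outside every H2Bub1 domain. The OE-high Fbxl19 list was the only one to overlap 709 Rnf20 peaks, and the OE-high H2Bub1 list the only one to overlap 364. The corresponding numbers were 122 for the ES H2Bub1 list, 36 for OE-low Fbxl19, 27 for differentiated cells, 24 for KD ES cells and 8 for differentiated KD cells. The 2 lists from the OE-high clone, with the largest such numbers, are also the more numerous Fbxl19 list (13598 autosomal peaks) and the most extended H2Bub1 list (244 Mb). Most of the removed peaks overlapped more than 1 list, and removal without both OE-high lists together was not computed.

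The edge of the rule is sharp in base pairs. The member closest to another list, at 30906725 to 30906998 on chromosome 7 (score 50.5), lay 1 bp from an OE-high H2Bub1 domain. Next came 9872180 to 9872594 on chromosome 11 (score 77.8), 5 bp from an ES domain, and 53858884 to 53859167 on chromosome 5 (score 55.9), 6 bp from an OE-high Fbxl19 peak. Just outside the set, 100162892 to 100163205 on chromosome 6 (score 50.8) was removed by 6 bp of an OE-high H2Bub1 domain. On chromosome 11, 20641591 to 20642009 (score 89.4) and 100180598 to 100180878 (score 58.7) were removed by 9 bp each. In all, 24 members lay within 100 bp of a listed region, and 30 peaks were removed by an overlap of 100 bp or less.

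Rnf20 peaks without Fbxl19 or H2Bub1 were weak and narrow compared with the rest of the list. The authors' score for each peak ranged from 50.0 to 1093 in the set, with a median of 59.9 (interval 59.5 to 60.4), and from 50.0 to 3100 in the 5201 other autosomal Rnf20 peaks, with a median of 74.6 (interval 73.0 to 75.8). A score under 60, close to the lowest score of 50.0 in the list, was found in 1515 members (50.3%) and in 1579 of the other peaks (30.4%). The 10 autosomal peaks that shared the top score of 3100 all overlapped Fbxl19, so the rule itself kept them out of the set. Median length was 311 bp (interval 306 to 316) in the set and 429 bp (interval 422 to 435) in the others. Only 18 members (0.598%) reached 1 kb, against 385 of the others (7.40%). The members' median score and median length were both lower than those of the other peaks on 19 of 19 autosomes.

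**Figure D1:**
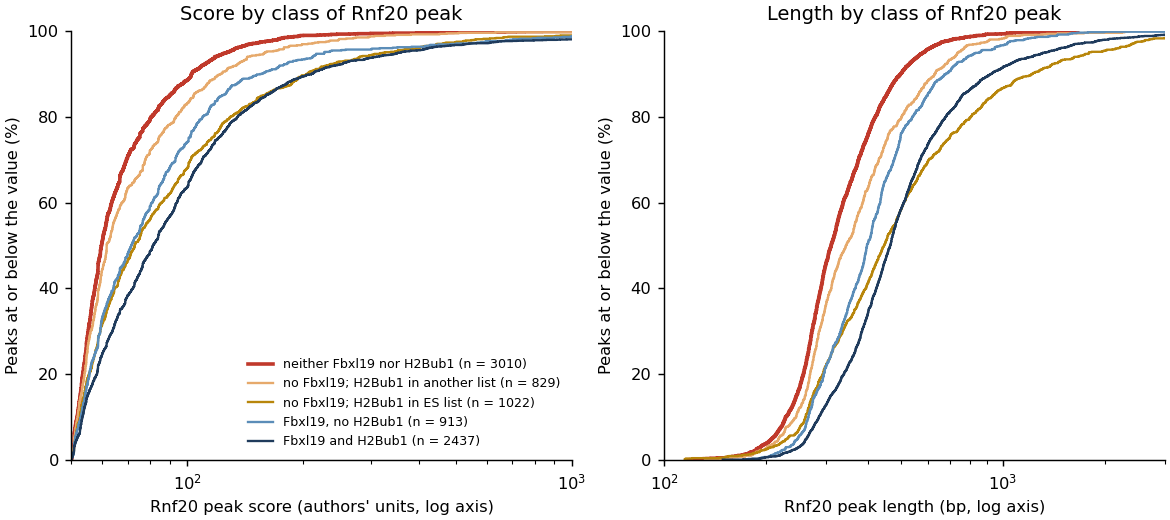
Cumulative share of autosomal Rnf20 peaks (%) against the authors' score (left, cut at 1000) and length in bp (right, cut before the longest peaks), both on log axes, in 5 classes by overlap with Fbxl19 and H2Bub1. The set with neither, in red, has the lowest medians, 59.9 and 311 bp, and the class with both Fbxl19 and H2Bub1 the highest, 81.4 and 465 bp.

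The 4 other classes of Rnf20 peaks were not equally far from the set in score and length. Closest were the 829 peaks without Fbxl19 that lay in an H2Bub1 domain of some list other than the ES list, with a median score of 61.7 (interval 61.1 to 63.7) and a median length of 344 bp. The 913 peaks with Fbxl19 and no H2Bub1 had a median score of 71.5 (interval 69.1 to 75.1) and 397 bp. The 1022 peaks without Fbxl19 in an ES H2Bub1 domain had 73.0 (interval 70.5 to 76.0) and 446 bp. The 2437 peaks with both Fbxl19 and H2Bub1 stood highest, at 81.4 (interval 79.8 to 84.1) and 465 bp. These intervals describe how finely each median is fixed by the number of peaks, not how it would vary in a second Rnf20 library.

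The share of the set fell along the score range. In the lowest decile of autosomal Rnf20 peaks by score (50.0 to 52.4), 401 of 821 were members (48.8%, interval 45.4 to 52.3). The share was 52.8% in decile 3, 39.6% in decile 6 and 25.8% in decile 8. In the highest decile (148 to 3100), 87 of 822 were members (10.6%, interval 8.56 to 12.9), while 51.0% had both Fbxl19 and H2Bub1. Over the lowest 4 deciles the share stayed between 47.1% and 52.8% with no steady order. Seen from the set, 376 members (12.5%, interval 11.3 to 13.7) had a score in the top quartile of the autosomal list, at or above 96.2, where the whole list has 25% by construction. The highest decile of the list held 87 members (2.89% of the set, against 10% of the whole list).

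**Figure D2:**
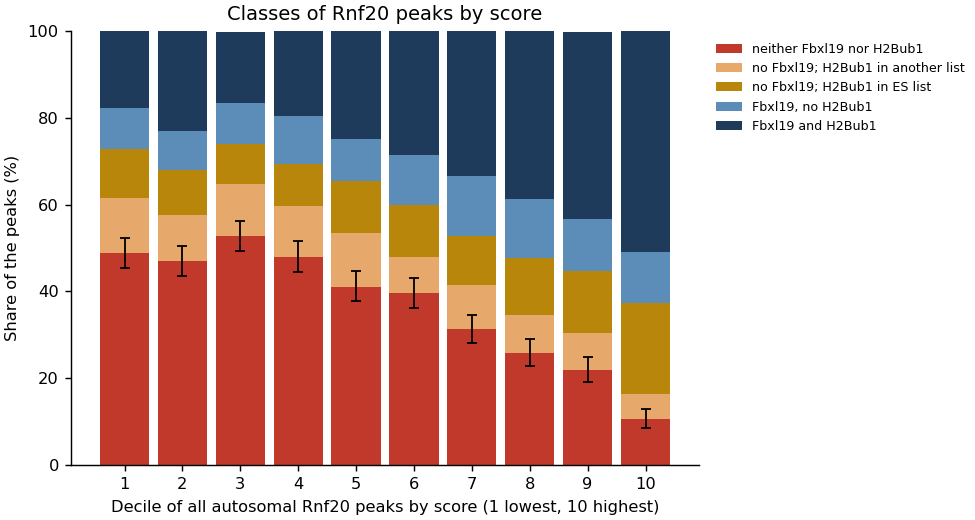
Share (%) of 5 classes of Rnf20 peaks in each decile of the autosomal list by score, from lowest (1) to highest (10), with exact 95% intervals on the share without Fbxl19 or H2Bub1 (red). The red share is 48.8% in the lowest decile and 10.6% in the highest, and the share with both Fbxl19 and H2Bub1 in the highest decile is 51.0%.

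The difference in score was small among peaks of like length. Score and length rise together in this list (Spearman 0.52 over the 3010 members and 0.72 over the 5201 others, across peaks of 1 library). Among the shortest autosomal peaks (115 to 288 bp), 1179 of 2037 (57.9%) were members. Among those of 289 to 379 bp the share was 46.6%, at 380 to 506 bp it was 28.8%, and among the longest (507 bp and more) 278 of 2054 were members (13.5%, interval 12.1 to 15.1). Within the shortest class the median score was 56.2 in members (interval 55.8 to 56.5) and 55.6 in the others (interval 55.1 to 56.1). In the next class it was 58.6 in members (interval 58.4 to 58.9) and 59.4 in the others (interval 58.9 to 60.3). In peaks of 380 to 506 bp it was 76.0 (interval 73.8 to 78.3) against 77.2 (interval 76.4 to 79.3). The medians lay farthest apart among the longest peaks, at 109 (interval 102 to 115) in members and 123 (interval 118 to 127) in the others. A length in the top quartile of the autosomal list was found in 278 members (9.24%, against 25% of the whole list).

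The 10 highest-scoring members each lay near another Rnf20 peak, and some of them lay close to one another. The highest score, 1093, belonged to 55810925 to 55811799 on chromosome 12. It was joined there by 55819669 to 55820753 (score 714) and 55814852 to 55815881 (score 533), so that 3 of the 10 highest-scoring members fell within 10 kb of sequence. Chromosome 11 held 3 more: 87261741 to 87262803 (score 755) and 87275458 to 87276442 (score 670), and 101506997 to 101507501 (score 666). The second highest score, 838, was that of 22442944 to 22443959 on chromosome 2, which lay 0.222 kb from the nearest Fbxl19 peak. The other members of this group were 80663456 to 80664721 on chromosome 8 (score 494), 23634132 to 23635353 on chromosome 13 (score 450) and 96254048 to 96255710 on chromosome 3 (score 443). The last is also the longest member, at 1663 bp, followed by 40542005 to 40543505 on chromosome 4 (1501 bp, score 343) and 9576446 to 9577785 on chromosome 14 (1340 bp, score 172). At the other end, 57486506 to 57486768 and 103608034 to 103608296 on chromosome 10 and 119923893 to 119924155 on chromosome 12 shared the lowest score, 50.0, and a length of 263 bp.

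All 10 of the highest-scoring members had another Rnf20 peak within 10 kb, and 6 of these neighbours overlapped Fbxl19. Another Rnf20 peak within 10 kb was found for 33 of the 50 highest-scoring members (66.0%, interval 51.2 to 78.8), for 124 of the top 301 (41.2%, interval 35.6 to 47.0) and for 504 of the remaining 2709 (18.6%, interval 17.2 to 20.1). The same gradient held outside the set, where 75.2% of the top 520 of the other peaks and 44.3% of the remaining 4681 had such a neighbour. The very highest-scoring members lay near a listed region more often than the rest. Of the top 10, 80.0% were within 10 kb of an Fbxl19 peak or H2Bub1 domain, against 62.0% of the top 50, 32.6% of the top 301 and 20.6% of the members below them. Among the 301 lowest-scoring members the share was 25.6%, so there was no steady order below the top.

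As a whole the set was sparse along the genome, which the rule by position can itself favour. The H2Bub1 lists had median domain lengths from 7600 to 21600 bp, so 1 domain could remove several neighbouring peaks together. The rule's part in the spacing was not tested. The median distance from a member to the next Rnf20 peak was 94.7 kb (interval 86.9 to 105), against 12.4 kb (interval 11.1 to 14.0) for the other peaks. Another Rnf20 peak lay within 10 kb of 628 members (20.9%, interval 19.4 to 22.4), where the whole autosomal list had 37.6% and the peaks outside the set 47.4%. The share was lower in members on 19 of 19 autosomes. By class it was 32.6% with Fbxl19 alone and 43.2% with Fbxl19 and H2Bub1. Without Fbxl19 it was 45.8% in H2Bub1 domains of lists other than the ES list and 71.6% in ES H2Bub1 domains. For 463 of the 628 members with a neighbour (73.7%), the nearest Rnf20 peak was itself a member. Members are 36.7% of all autosomal Rnf20 peaks, and a rule by position can place neighbouring peaks in 1 class together. Of the 463, 81 belonged to the 2 longest runs described below. For 83 of the 628 the nearest Rnf20 peak overlapped Fbxl19 alone and for 41 both Fbxl19 and H2Bub1. Joining members separated by gaps under 10 kb gave 2529 single members, 177 pairs, 11 groups of 3, and 1 group each of 4, 5, 36 and 49.

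The 2 longest runs stood far apart from the rest. On chromosome 6, 49 members lay between 114442917 and 114586895, a span of 144 kb that held no other Rnf20 peak, no Fbxl19 peak and no H2Bub1 domain. The nearest Fbxl19 peak was 332 kb away and the nearest H2Bub1 domain 396 kb away. Their scores ran from 50.8 to 227 with a median of 76.0, and 13 of the 49 were in the top quartile of the list. On chromosome 8, 36 members lay between 126062479 and 126147821, a span of 85.3 kb. Their scores ran from 50.8 to 246 with a median of 116, and 22 of the 36 were in the top quartile of the list. That span held 6 further Rnf20 peaks that overlapped Fbxl19, with a median score of 97.7, and 9 OE-high Fbxl19 peaks, no OE-low peak and no H2Bub1 domain. The third run, on chromosome 8 from 80661179 to 80671688, had 5 members with scores from 51.6 to 494.

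Spacings between neighbouring peaks clustered in both runs, more tightly on chromosome 8 than on chromosome 6. On chromosome 8 the 42 Rnf20 peaks of the run had a median midpoint-to-midpoint spacing of 1.71 kb. Of the 41 spacings, 32 were between 1.4 and 2.0 kb and 5 between 3.1 and 3.7 kb, with 1 each from 5.2 to 5.4 kb and from 6.6 to 6.8 kb and 2 outside these ranges. On chromosome 6 the median spacing was 2.47 kb. There, 25 of 48 spacings were between 2.0 and 2.8 kb, 8 between 4.3 and 5.3 kb and 3 between 7.0 and 7.5 kb, and 12 lay outside, both between and below these ranges. These ranges were chosen after the spacings were seen. Only 2 of the 21 runs of 10 or more Rnf20 peaks on autosomes consisted mostly of members, and they are these 2. A run of similar size, 46 peaks from 19854539 to 20038054 on chromosome 8, lay wholly inside H2Bub1 domains and held no member. The 85 members of the 2 runs are 2.82% of the set and 13.5% of the members with a neighbour within 10 kb. Without the 2 spans that share of the set is 18.6%.

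**Figure D3:**
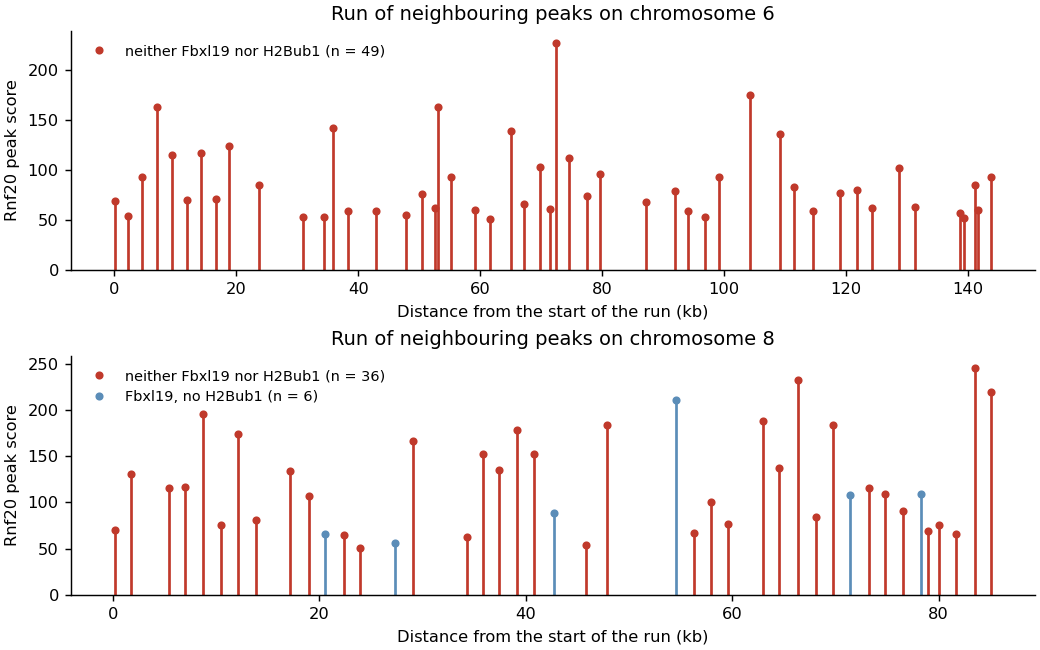
Authors' score of each Rnf20 peak against its distance in kb from the start of the run, for the 49 peaks of the run on chromosome 6 (top) and the 42 on chromosome 8 (bottom), with peaks that overlap Fbxl19 in blue. Neighbouring peaks have a median spacing of 2.47 kb and 1.71 kb, and none lies in an H2Bub1 domain.

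Distance from the members to the lists that define them ranged from a few bases to several megabases. The nearest region of any of the 7 lists was at a median of 86.7 kb (interval 77.0 to 98.3), with a middle range of 13.0 to 337 kb. It lay within 1 kb for 178 members (5.91%), within 10 kb for 657 (21.8%) and beyond 100 kb for 1439 (47.8%), of which 195 were beyond 1 Mb. By list, the median was 160 kb to OE-high H2Bub1 domains, 162 kb to OE-high Fbxl19 peaks, 246 kb to H2Bub1 domains of differentiated cells and 383 kb to those of ES cells. It was 684 kb to KD ES domains, 715 kb to OE-low Fbxl19 peaks and 1030 kb to differentiated KD domains. Lists with fewer regions mostly lay farther away, the exceptions being the closely matched OE-high pair and the KD ES and OE-low pair. The 3 most distant members all lay on chromosome 5, at 82136823 to 82137137 (score 69.4), 81634383 to 81634877 (score 53.3) and 83336420 to 83336696 (score 53.0), each more than 3 Mb from every listed region.

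**Figure D4:**
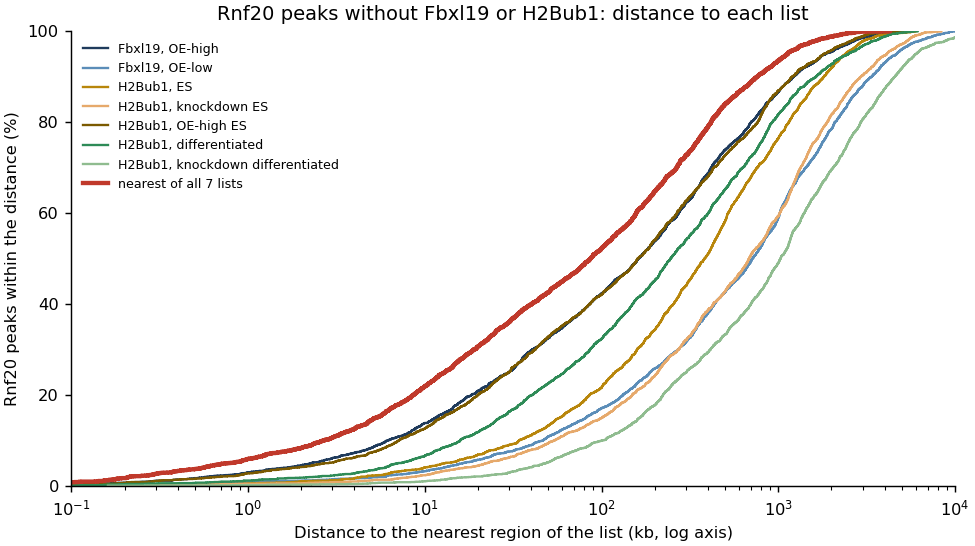
Cumulative share (%) of the 3010 Rnf20 peaks without Fbxl19 or H2Bub1 within a given distance (kb, log axis) of the nearest region of each of the 7 lists and of the nearest of all lists (thick red line). The nearest region of any list is at a median of 86.7 kb, and 21.8% of the peaks have one within 10 kb.

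Remote and near members had about the same median score but differed in their strong tail and in their neighbours. Median score was 58.6 (interval 56.8 to 62.1) in the 178 members under 1 kb from a listed region, 59.5 (interval 58.6 to 60.3) in the 914 at 10 to 100 kb and 61.4 (interval 59.5 to 63.6) in the 195 beyond 1 Mb. The rank correlation of score and distance over members was -0.0050. A score in the top quartile of the autosomal list was found in 16.3% of members under 1 kb (interval 11.2 to 22.6), 19.4% at 1 to 10 kb, 11.5% at 10 to 100 kb, 10.2% at 100 kb to 1 Mb and 11.3% beyond 1 Mb (interval 7.21 to 16.6). Another Rnf20 peak within 10 kb was found for 45.5% of members under 1 kb, 43.6% at 1 to 10 kb, 10.1% at 10 to 100 kb, 16.8% at 100 kb to 1 Mb, and for 37 of the 195 members beyond 1 Mb (interval 13.7 to 25.2%). The share was thus lowest at 10 to 100 kb and did not fall steadily with distance. The run on chromosome 6 lies in the class from 100 kb to 1 Mb. Leaving out members within 10 kb of a listed region brought the share with a neighbour to 14.4%.

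Members were spread over all autosomes and more evenly so than the other Rnf20 peaks. There were 1.25 members per Mb over the span of the lists, from 0.723 on chromosome 19 to 2.29 on chromosome 8, a 3.17-fold range. The other Rnf20 peaks ranged 5.56-fold, from 0.889 per Mb on chromosome 1 to 4.94 on chromosome 8. Chromosome 8 held 294 members (9.77% of the set, interval 8.73 to 10.9), where the whole autosomal list had 11.3% of its peaks there. Its density was 1.83 times the autosomal mean in members and 2.29 times in the other peaks, and the part of copy number or of the single Rnf20 library in it was not tested.

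Members made up 52.6% of the Rnf20 peaks of chromosome 6 (240 of 456, interval 47.9 to 57.3), 51.8% on chromosome 1 (185 of 357, interval 46.5 to 57.1) and 50.2% on chromosome 16 (113 of 225). They were fewest on chromosome 19 (23.6%, 42 of 178, interval 17.6 to 30.5), chromosome 11 (25.4%, 133 of 524, interval 21.7 to 29.3) and chromosome 17 (29.0%). Without the run of 49, the share on chromosome 6 was 46.9% (interval 42.0 to 51.9), and without all 42 Rnf20 peaks of the long run on chromosome 8 the share there was 29.1% in place of 31.7%. The share was lower on chromosomes with more H2Bub1 cover and more Fbxl19 peaks. H2Bub1 domains of any list covered 17.2% of chromosome 11 and 6.93% of chromosome 6, and OE-high Fbxl19 had 9.81 and 3.41 peaks per Mb there. Over the 19 autosomes the rank correlation of the member share was -0.67 with H2Bub1 cover and -0.65 with Fbxl19 peaks per Mb, which the rule itself favours. Chromosome 1 departed from this order. It had 6.79 OE-high Fbxl19 peaks per Mb and 11.6% H2Bub1 cover, but only 0.272 Rnf20 peaks of any class per OE-high Fbxl19 peak, the lowest ratio of the 19 autosomes. Members per Mb had a rank correlation of -0.22 with Fbxl19 peaks per Mb, and the other Rnf20 peaks one of 0.48. The rule favours this contrast too, since 3350 of the 5201 other peaks overlapped Fbxl19. The members' median score differed little between chromosomes, from 58.2 on chromosomes 7 and 10 to 62.9 on chromosome 14.

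**Figure D5:**
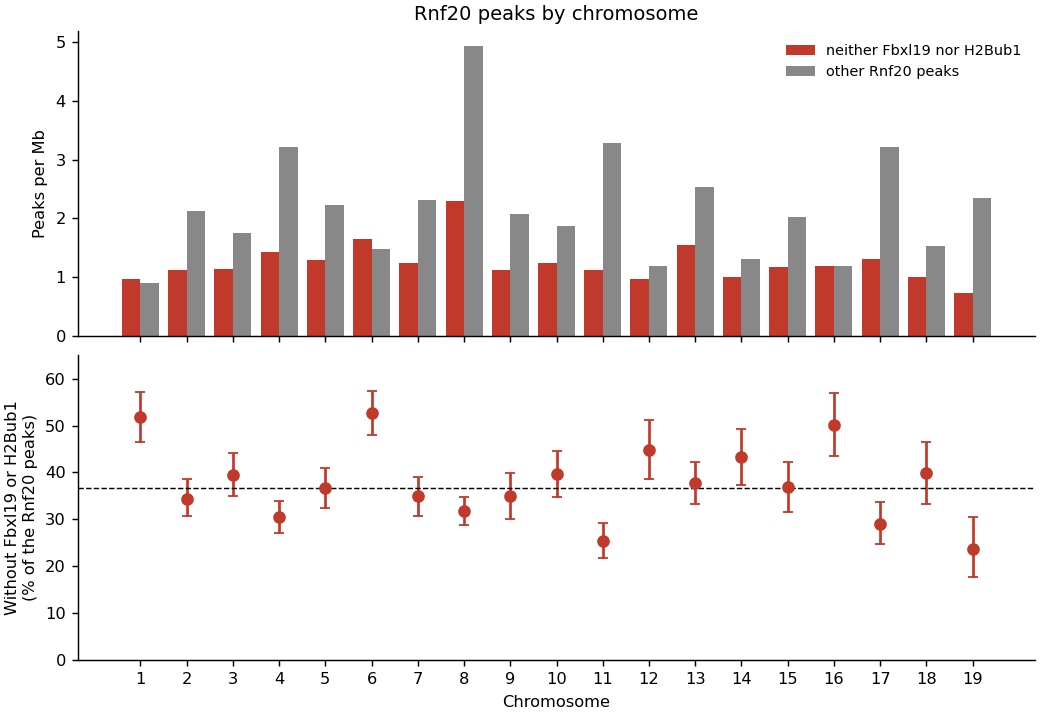
Top, Rnf20 peaks per Mb of each autosome without Fbxl19 or H2Bub1 (red bars) and all other Rnf20 peaks (grey bars); bottom, the first as a share (%) of all Rnf20 peaks of the chromosome with exact 95% intervals, and the autosomal value of 36.7% as a dashed line. Chromosome 8 is highest for both kinds at 2.29 and 4.94 per Mb, and the share is highest on chromosome 6 at 52.6%.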

How the data were processed

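The Rnf20 score, the Fbxl19 first score and the H2Bub1 domain score are the authors' deposited values per region, with formulas that no source at hand states. The Rnf20 peak names begin with MACS, per the file headers and rows, and its deposited score runs from 50.0 to 3100. The H2Bub1 track lines end in BCP, per the file headers, and a further deposited column (another value, the domain length in bp) was not needed. MACS, BWA 0.5.9-r16 and the build mm9 are named, without roles, in the submitters' processing notes. Starts were taken as 1-based in the Fbxl19 lists and 0-based elsewhere, and printed positions are 1-based.

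Overlap meant 1 bp or more. Distances run from edge to edge. Deciles and quartiles of score and length were set on all 8211 autosomal Rnf20 peaks. Shares carry exact Clopper-Pearson intervals and medians exact order-statistic intervals, both at 95% and for counting error only. Named regions are the 10 highest-scoring members, the 3 longest, lowest-scoring and farthest, the 3 on either side of the rule's edge, and the 3 largest runs. The members, classes and lists were chosen with earlier results of these data known. Alternatives changed the overlap rule, the lists that remove peaks, the Rnf20 threshold and the chromosomes. Overlap and distance code was tested on simulated data and recovered all 8211 placed gaps. Genes, promoters and sequences are not given, since no genome of the mm9 build was at hand. Python 3.11.15, NumPy 2.4.6, SciPy 1.17.1, pandas 2.3.3 and matplotlib 3.10.9 were used.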

Additional observations from a re-analysis of the deposited data

Results flagged for a closer look

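The rule keeps to autosomes, and Rnf20 peaks elsewhere were not part of the comparisons above. Few regions of the removing lists lie off the autosomes. Of 13669 OE-high Fbxl19 peaks 13598 were autosomal, as were 7155 of 7216 OE-high H2Bub1 domains. The part of this scarcity in the shares below was not tested. On the X chromosome 209 of 271 Rnf20 peaks (77.1%, exact interval 71.7 to 82.0) overlapped no Fbxl19 peak and no H2Bub1 domain, with a median score of 60.1 and a median length of 303 bp, close to the autosomal set. On unplaced or random contigs 120 of 124 Rnf20 peaks (96.8%, interval 91.9 to 99.1) did so, with a median score of 69.2. Random contigs of the Y chromosome are among them. The H2Bub1 lists used here have no domain on such contigs. Both counts were singled out because they lie in data that no comparison used, and no control list was available here to set them against.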

How the results depend on the processing

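Of 86 recomputed values, 58 stayed within the counting interval of the reported value and 28 moved outside it. The share of autosomal Rnf20 peaks in the set was 34.5% with no listed region allowed within 1 kb and 28.7% within 10 kb. It was 50.2% with the top 50% of each removing list by score, 41.1% without the OE-high H2Bub1 list, 45.3% without the OE-high Fbxl19 list and 25.7% among the top 50% of Rnf20 peaks. Under the top 50% of the removing lists, no OE-high Fbxl19 list and the top 50% of Rnf20 peaks, in this order, the median score was 61.1, 60.7 and 84.5, and the median length 324, 323 and 414 bp. In the same order the share in the top quartile of scores was 14.7%, 14.2% and 35.6%. The last value keeps the cut of the whole list, which 2054 of the 4106 Rnf20 peaks used there reach by construction. With the 10 kb rule the share in the top quartile was 10.8%. In the set as reported, 2.89% of members lay in the top 10% of scores. The share on chromosome 8 was 7.73% with the 10 kb rule. The share with an Rnf20 neighbour was 19.3% and 14.4% with the 1 kb and 10 kb rules, 25.1% with the top 50% of the removing lists, 23.4% without OE-high H2Bub1, 22.7% without OE-high Fbxl19 and 16.7% among the top 50% of Rnf20 peaks. It was 19.4% without chromosome 8, 18.6% without the 2 longest runs, and 17.1% and 38.2% for neighbours within 5 kb and 50 kb. The median distance to any list was not recomputed under the changed overlap rules or removing lists. Under the other settings it lay between 82.6 and 97.5 kb. Runs, top 50% Rnf20 and chromosome settings for distance, and the position conventions, were chosen after seeing the data. In every setting that redrew the set, it had a lower median score, a shorter median length and fewer neighbours than the remaining peaks. Where a value moved because the rule or the list was changed, any further cause was not tested. No paired analysis was possible because Rnf20 has 1 library and the other lists are combined over replicates; for the same reason no replicate could be left out. Gene and sequence results were not run without mm9, and the Rnf20 list has no further measured column. Depth limits cannot be given, since no list holds read counts.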

Other observations

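Gene names could not be given to the 2 long runs of peaks, because the RefSeq gene table at hand is on GRCm38 and not on mm9. By name and order alone, that table lists 69 genes named as 5S ribosomal RNA genes (n-R5s), of which 42 are on chromosome 8 and 38 of those stand next to another one. The run on chromosome 8 has 42 Rnf20 peaks at a median spacing of 1.71 kb. Whether the run lies at these genes was not tested, since positions were not carried between builds, and equal numbers do not show that it does. Reads that fit several copies of a repeated sequence can be placed by an aligner in more than 1 way, and how such reads were handled is not stated by the labels or headers.

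Besides the 2 runs made mostly of members, 7 other runs of 10 or more Rnf20 peaks held a member. The largest of these, 88409174 to 88452277 on chromosome 4, had 16 Rnf20 peaks, of which 10 overlapped Fbxl19 without H2Bub1 and 6 were members. On chromosome 13, 15 Rnf20 peaks from 23622035 to 23678085 comprised 7 with Fbxl19 alone, 6 in H2Bub1 domains and 2 members, 1 of which is among the 10 highest-scoring members.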
